A study of Homo sapiens with 54 samples.

Results

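The measurements are those of the lincRNA region probes of a one-colour Agilent human expression array, oligonucleotides that the array design places in genomic regions annotated as producing large intergenic non-coding RNA. Members were chosen from the annotation alone, as every non-control probe whose systematic name in the scanner files is a lincRNA region with chromosome, start, end and strand. There were 7660 such probes, 18.1% of the 42405 probes on the array, and they lie in 4853 regions of build hg19. Merging regions that overlap gave 2404 loci, so that the probes of a locus can report on the same transcript and are not independent of each other.

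The samples were human pluripotent stem cells, 27 cultures with 2 duplicate arrays each. H1 embryonic stem cells (ESCs) in E8 Medium, a defined feeder-free medium, were sampled as pre-culture and after 4 days with 100 ng/mL basic fibroblast growth factor (bFGF), with 100 ng/mL FGFC, a stable chimera of FGF1 and FGF2, or with no FGF, in 3 experiments. A total of 5 long-term systems each had 1 pre-culture, 1 culture with bFGF and 1 with FGFC. These were H1 in E8 Medium for 30 days at 100 ng/mL, H1 in medium conditioned by mouse embryonic fibroblasts (MEF-CM) for 41 days at 5 ng/mL, KhES-1 ESCs on MEF feeder cells for 30 days at 5 ng/mL, and 2 induced pluripotent stem cell lines, 201B7 on MEF feeder cells for 50 days at 10 ng/mL and 253G1 in E8 Medium for 36 days at 100 ng/mL. The last culture was H1 ESCs differentiated in vitro through embryoid bodies. Each system is 1 line that descends from 1 pre-culture, and between systems the line or medium, the slide and the scan year cannot be told apart. In experiment 2 the 4-day cultures were at passage 59 and the pre-culture at passage 49, and for 5 arrays of experiment 3 the deposited passage labels disagree.

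Large intergenic non-coding RNAs are spliced, usually polyadenylated transcripts that do not code for protein. Many are restricted to few cell types, and several are known in ESCs, such as LINC-ROR and LINC00458. FGF signalling through MEK and ERK helps to keep human ESCs undifferentiated, and ESCs left without FGF begin to differentiate. MEG3 is a maternally expressed non-coding RNA of the imprinted DLK1-MEG3 domain on chromosome 14, where the neighbouring coding gene DLK1 is expressed from the paternal copy.

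Few members carry a gene name. The symbol column of the study's supplementary probe lists named 214 of the probes, and 195 of these matched 137 RefSeq genes. Names therefore exist only for probes on those lists. The study listed probes changed 2-fold or more between FGFC and bFGF in the long-term cultures, so the named probes were selected from these same data. The promoters of 4 matched non-coding genes are given because their probes changed without FGF and because they differ widely in base composition. Each runs from 250 bases before to 50 bases after the RefSeq start site in build GRCh38.p14, 5′ to 3′ on the gene's strand, and the capitals mark the bases after the start. They are from RefSeq and not from the hg19 regions of the array.
MEG3 (chr14:100825858-100826157, + strand): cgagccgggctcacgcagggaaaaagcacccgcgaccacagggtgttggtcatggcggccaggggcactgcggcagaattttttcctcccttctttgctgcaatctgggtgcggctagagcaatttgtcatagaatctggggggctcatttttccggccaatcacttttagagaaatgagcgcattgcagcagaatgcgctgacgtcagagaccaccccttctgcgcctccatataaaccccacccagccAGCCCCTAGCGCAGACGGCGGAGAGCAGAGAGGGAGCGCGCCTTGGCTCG
LINC01108 (chr6:14285405-14285704, - strand): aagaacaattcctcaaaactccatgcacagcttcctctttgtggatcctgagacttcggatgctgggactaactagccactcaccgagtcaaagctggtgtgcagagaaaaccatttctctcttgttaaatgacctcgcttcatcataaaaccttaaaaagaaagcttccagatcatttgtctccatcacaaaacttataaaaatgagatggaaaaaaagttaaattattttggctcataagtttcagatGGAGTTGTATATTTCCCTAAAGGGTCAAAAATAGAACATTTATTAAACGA
LINC-PINT (chr7:131109876-131110175, - strand): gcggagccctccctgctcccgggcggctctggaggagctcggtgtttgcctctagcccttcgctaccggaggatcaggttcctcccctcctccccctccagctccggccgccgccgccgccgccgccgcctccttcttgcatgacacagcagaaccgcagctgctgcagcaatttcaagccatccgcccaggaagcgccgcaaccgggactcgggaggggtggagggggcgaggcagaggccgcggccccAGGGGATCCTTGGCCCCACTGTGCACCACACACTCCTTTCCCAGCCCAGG
LINC02939 (chr22:46070972-46071271, - strand): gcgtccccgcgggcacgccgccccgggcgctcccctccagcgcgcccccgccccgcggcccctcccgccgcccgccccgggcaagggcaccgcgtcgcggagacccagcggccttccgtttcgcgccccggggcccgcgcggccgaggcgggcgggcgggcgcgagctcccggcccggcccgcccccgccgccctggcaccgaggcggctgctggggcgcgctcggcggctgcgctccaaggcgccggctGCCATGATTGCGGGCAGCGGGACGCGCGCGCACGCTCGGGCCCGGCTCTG
G and C made up 59.0% of the MEG3 window, which has 19 CG pairs, 36.7% of the LINC01108 window with 4, 70.3% of the LINC-PINT window with 23 and 85.7% of the LINC02939 window with 57. The median over 12917 promoters of RefSeq long non-coding RNA genes was 50.0% with 5 CG pairs, and over all 35116 promoters 58.7% with 14. MEG3 has 3 start sites in this table and LINC-PINT has 4, of which 1 each is printed.

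Regions had a median length of 11301 bases, with quartiles of 5115 and 30726. Of the 4853 regions, 2558 held 1 probe, 1910 held 2 and 385 held 3 or more, with at most 10. Probes were placed on the + strand in 1382 regions, on the - strand in 1449 and on both strands in 2022. For 1875 probes the supplementary lists give an exact hg19 position, which was inside the named region for 1835.

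Detection was lower for the lincRNA probes than for coding probes. A probe was counted as detected in a culture when the scanner software marked it well above background on both arrays. In every one of the 27 cultures a smaller share of the 7660 lincRNA probes than of the 24440 RefSeq coding probes was detected. The lincRNA share had a minimum of 36.7%, a median of 54.4% and a maximum of 72.1% over the cultures, and the coding share had 68.2%, 76.1% and 82.7%. The gap between the classes was 10.6 to 31.5 percentage points. A low share was not particular to lincRNA probes. The 2136 RefSeq non-coding probes had 38.9% detected in the 253G1 culture with FGFC, beside 36.7% of lincRNA probes. In the H1 MEF-CM culture with FGFC they had 61.0%, beside 72.1%. On all 54 arrays together, 2337 lincRNA probes (30.5%) were well above background on every array and 645 (8.42%) on none, against 15184 (62.1%) and 988 (4.04%) of the coding probes. The other 4678 lincRNA probes (61.1%) were detected on some arrays and not on others.

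**Figure D1:**
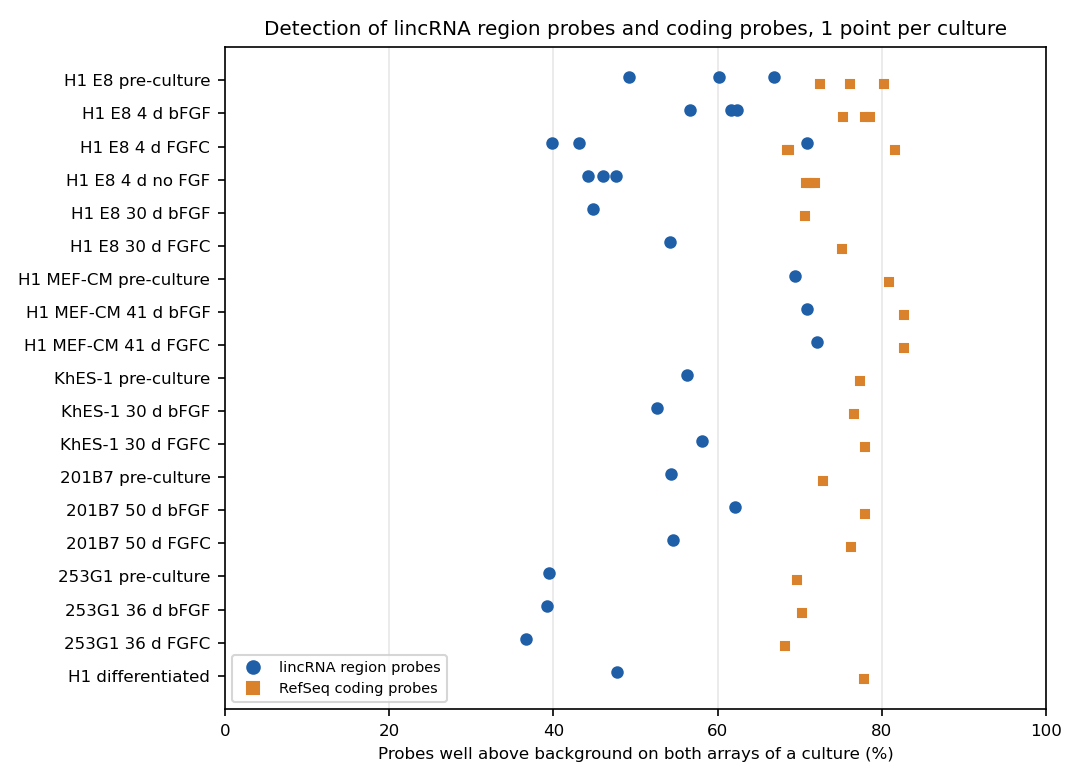
Share of lincRNA region probes (circles) and RefSeq coding probes (squares) well above background on both arrays of a culture, in percent on the horizontal axis, with 1 point per culture and groups on the vertical axis. The lincRNA shares run from 36.7% to 72.1% and lie below the coding shares, 68.2% to 82.7%, of the same cultures.

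The share also differed among cultures of one kind. The H1 cultures with bFGF for 4 days had 61.6%, 56.6% and 62.4% of lincRNA probes detected in experiments 1 to 3, and those without FGF had 44.2%, 47.6% and 46.0%. The groups did not overlap, and the difference of means was -14.3 percentage points (60.2% ± 3.12 with bFGF and 45.9% ± 1.69 without FGF, SD, n = 3). An exact two-sided permutation test gave p = 0.1, the smallest that 3 against 3 cultures allow. For coding probes the difference was -5.95 points. The FGFC cultures had 39.9%, 70.8% and 43.1%, so that 2 of the 3 lay below every culture without FGF and 1 lay above every culture with bFGF. Duplicate arrays of a culture differed by a median of 3.04 points and by up to 21.0. The part of array quality in these shares was not tested.

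Both strands of a region could be read separately. Of the 2022 regions with probes on both strands, 750 had a probe of each strand well above background on all 6 arrays of the 4-day bFGF cultures, 832 had one strand only (419 the + strand and 413 the - strand), and 440 had neither. Changes followed the strand. Among probes well above background in at least 1 of the 2 arms, 313 pairs of probes on the same strand of a region had changes without FGF that correlated with r = 0.89, and 887 pairs on opposite strands with r = 0.42. Pairs share a region and are no independent replicates, so the correlations are given as a description with no test. Where at least 1 probe of a same-strand pair passed the test described next (52 pairs), the other did too in 31, or 59.6%. For opposite strands it was 20 of 116, or 17.2%, and every pair that passed together changed in the same direction.

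At 4 days, culture without FGF lowered more lincRNA probes than it raised. Against bFGF, 451 of 7660 lincRNA probes fell and 90 rose at a limma adjusted p under 0.05, which is 5.89% and 1.17% of them. Over all 42405 probes tested, 7.19% fell and 5.54% rose. Coding probes were called in near equal numbers, 2098 lower and 1995 higher. The called lincRNA probes were in 489 regions, 407 with falls and 82 with rises, and no region had both. After merging, 222 loci held only falls, 55 only rises and 3 both. Among probes that all arrays of 1 arm or more detected, 9.32% of 4215 lincRNA probes fell and 1.59% rose, beside 10.6% and 9.72% of 18375 coding probes. More lincRNA probes were detected with bFGF than without FGF, so probes pass this filter more often through the bFGF arm, which favours falls, and the shares are a description only.

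**Figure D2:**
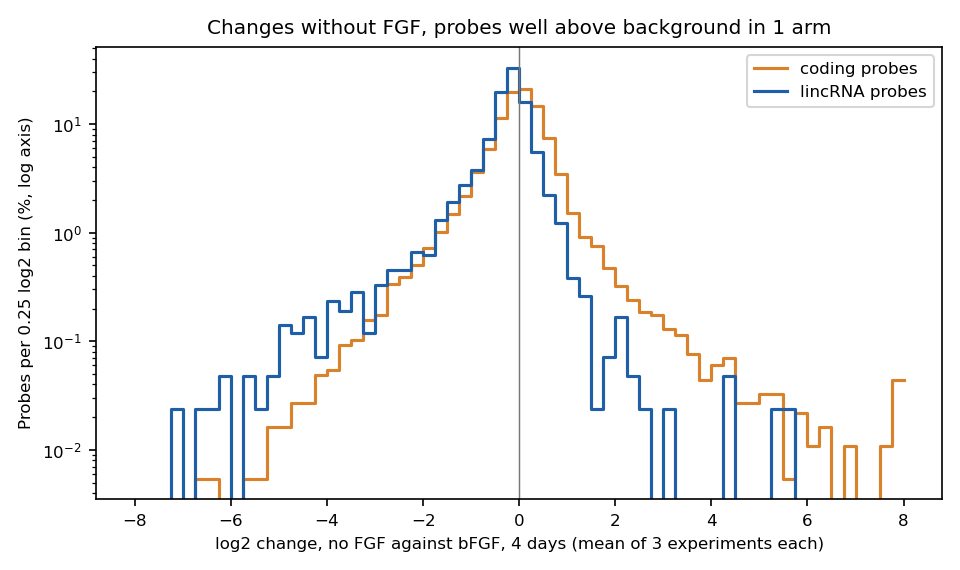
Distribution of the log2 change without FGF against bFGF (horizontal axis, mean of 3 experiments each) for probes detected in all arrays of 1 arm or more, as percent of the class per 0.25 log2 bin on a logarithmic vertical axis, with changes beyond 8 placed in the last bin. lincRNA probes (4215) and coding probes (18375) differ in shape, with 33.2% of lincRNA and 19.7% of coding probes between -0.25 and 0, and 5.55% and 14.7% between 0.25 and 0.5.

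The lower detection in the cultures without FGF stands beside these counts. Within single experiments, over all 7660 lincRNA probes, 889 were 2-fold lower and 235 higher than in the bFGF culture in experiment 1, 514 and 372 in experiment 2, and 855 and 284 in experiment 3, so the excess of falls was smallest in experiment 2. Of the 24440 coding probes, 1737 were lower and 1561 higher in experiment 1. In experiments 2 and 3 they were 1719 and 1776, and 2254 and 1806. The share of the 4215 brighter lincRNA probes that was 2-fold lower than in the bFGF culture was 12.5%, 8.37% and 11.8% in experiments 1 to 3, and 1.12%, 2.33% and 1.71% was 2-fold higher. Of the 18375 brighter coding probes, 7.11%, 7.77% and 8.99% were lower and 5.86%, 5.70% and 6.25% higher. In experiment 1 the FGFC culture, which had 39.9% of lincRNA probes detected, also had 8.59% of its brighter lincRNA probes 2-fold lower than bFGF and 0.191% higher. In experiments 2 and 3 that share was 0.215% in both, with 0.262% and 0.549% higher. Of the brighter coding probes, 1.48%, 0.187% and 0.275% were lower in experiments 1 to 3, and 0.236%, 0.159% and 0.159% higher. Over all lincRNA probes the FGFC culture had 864 lower and 215 higher than bFGF in experiment 1, but 97 lower and 547 higher in experiment 2 and 99 lower and 420 higher in experiment 3. Coding probes had 875 lower and 467 higher in experiment 1, 191 and 612 in experiment 2, and 217 and 666 in experiment 3. With only the bFGF and no FGF cultures in the fit, 723 lincRNA probes fell and 615 rose (54.0% lower, beside 41.1% of coding calls), so the excess of falls among the calls was smaller there.

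The largest falls were in a single locus and reached background. Locus chr6:132223103-132259157, which spans 4 overlapping regions and has no RefSeq name here, has 5 probes, and all 5 fell, with log2 changes from -7.21 to -4.82. Its probe A_19_P00329646 (chr6:132228532-132259157, - strand) had a log2 signal relative to the 75th percentile of the array of -6.42, -5.40 and -6.59 without FGF, while the bFGF cultures were at 1.09, 1.03 and 1.10 and the FGFC cultures at 0.34, 0.98 and 0.90. The 6 arrays without FGF were all not well above background, so the fall was at least 85.5-fold (measured means 1.07 ± 0.037 and -6.14 ± 0.646, SD, n = 3; change -7.21 ± 0.349 SE, adjusted p = 5.83e-07). The other named probes of the locus, A_19_P00318059, A_19_P00322783 and A_19_P00320499, fell at least 59.5, 55.8 and 57.5-fold.

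The same locus differed among lines and cultures. In the 3 MEF-CM cultures of H1, A_19_P00329646 was between 1.00 and 1.46. It ranged from -0.62 to -0.25 for KhES-1 and from -1.43 to -0.63 for 201B7. In 253G1 it was -2.32 in the pre-culture and -5.49 and -6.24 after 36 days with bFGF and FGFC, with no array of the later 2 cultures well above background. All 5 probes were lower in 253G1 than in H1 in E8 Medium (median change -4.08), but the named ones lost their call when the bFGF cultures were left out (adjusted p up to 0.138). After 30 days in E8 Medium, the H1 culture with bFGF was at 0.63 and that with FGFC at -3.12, with 1 culture each and no test.

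Other falls reached the same floor. Probe A_19_P00323539 of chr9:118241254-118292704 was at 1.09, 0.08 and 0.63 with bFGF and at -5.38, -4.99 and -5.90 without FGF, at least 56.1-fold lower. A_19_P00322802 of chr13:56148020-56148249 fell at least 24.5-fold, and all 5 probes of its locus fell. A_19_P00327850 of chr7:109181989-109272589 fell at least 29.3-fold. For each of these 3 probes, no array without FGF was well above background. Other probes stayed partly detected. A_19_P00316281 of chr6:94526482-94543375 was at 1.45, 0.84 and 1.08 with bFGF and at -3.30, -3.80 and -6.57 without FGF, well above background on 4 of the 6 arrays, a change of -5.68 ± 0.66 (SE, adjusted p = 2.25e-04). A_19_P00319154 of chrX:115944898-115951828, whose locus another probe links to LOC100126447, changed by -5.13 ± 0.46 and was detected on 3 of 6 arrays.

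**Figure D3:**
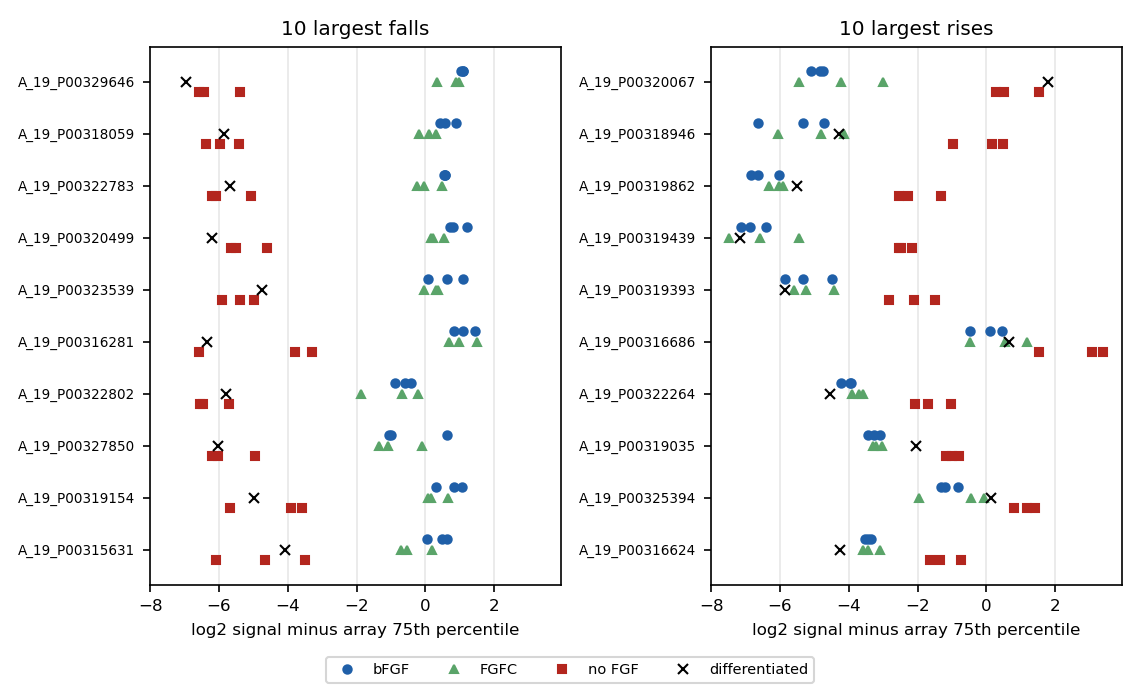
Log2 signal minus the 75th percentile of the array (horizontal axis) for the 10 lincRNA probes with the largest falls (left) and the 10 with the largest rises (right) without FGF, with each point 1 of 3 cultures per arm and the cross the single differentiated culture. The 20 probes were picked for their change in these same cultures. That the cultures without FGF (squares) do not overlap those with bFGF (circles) or FGFC (triangles) is thus a description only.

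Named non-coding RNAs among the falls included LINC00458 and MACC1-OT1. Of the 38 long non-coding RNAs on a list of known ones, 8 had a lincRNA probe with that name, 15 probes in all. LINC00458, known for its high level in pluripotent cells, was measured by 4 named probes on the - strand. A_19_P00318496 (chr13:54698461-54706997) gave -2.10, -1.76 and -2.28 with bFGF and -6.38, -6.47 and -6.58 without FGF, and FGFC gave -2.08, -2.89 and -2.82. The probes A_19_P00322142 and A_19_P00318291 changed by -3.52 and -2.54 and passed the test, and the remaining one, A_19_P00315541, had -1.11 (adjusted p = 0.15) and was well above background on only 3 of the 6 bFGF arrays. In the differentiated culture A_19_P00318496 was at -3.77. In H1 after 30 days in E8 Medium it was at -3.41 with bFGF and -6.49 with FGFC, with 1 culture each and no test. The 12 probes of the MACC1-OT1 locus, chr7:19951575-20168878, included 7 falls and 1 rise, with A_19_P00315631 the largest fall at -5.13 ± 0.67. MACC1, the coding gene next to it in RefSeq order, changed by -0.67 (adjusted p = 0.025).

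Loci with many probes also held shallower falls. In the LINC00698 locus, chr3:62935685-63116160, 11 of 15 probes fell, and the named probe A_19_P00319217 changed by -2.05 (adjusted p = 0.036). In the LINC-PINT locus, chr7:130528285-130800860, 16 of 34 probes fell, 3 of them named LINC-PINT with changes of -1.74 to -1.42. LINC-PINT is a p53-induced RNA. LINC01108 changed by -1.08 at A_19_P00321571 (adjusted p = 0.016), where 4 of 6 bFGF arrays and none of 6 without FGF were well above background. LINC-ROR, H19, CRNDE and HOTAIR did not pass, with changes of -0.36, -0.01, 0.13 and 0.13, and HOTAIR was well above background on no array of either arm.

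Some of the names had another probe on the array. Of 23 RefSeq genes whose lincRNA probes were called, 21 had falls and 2 had rises. Over all called lincRNA probes 83.4% were falls, and the names come from lists selected by change in these data. Of the 23 genes, 6 are coding genes that the regions overlap. CCDC141 changed by -4.62 at the lincRNA probe and by -2.63 at its RefSeq coding probe (adjusted p under the threshold at both). LINC00698 changed by -1.74 at a RefSeq non-coding probe (adjusted p = 0.031), LINC-PINT by -1.48 (adjusted p = 0.0042) and LINC00607 by -1.40 (adjusted p = 0.020). Of the 12 names with another probe, 6 had one called in the same direction and 6 did not. CYP1B1-AS1 had -1.20 at the lincRNA probe and 0.30 at the RefSeq probe (adjusted p = 0.66), and the other probes of KANK1, HLA-F-AS1 and RNF180 had -0.23, -0.19 and -0.17 (adjusted p = 0.36, 0.56 and 0.76). Those of KC6 and VSTM4 had -1.25 and -1.20 (adjusted p = 0.10 and 0.072). Of the 17 non-coding genes, 7 had a neighbouring coding gene in RefSeq order called in the same direction. Among them were DLK1 beside MEG3, CYP1B1 beside CYP1B1-AS1 and CD46 beside MIR29B2CHG. Neighbours on both sides were counted, and 8.58% of all coding probes fell and 8.16% rose. The count is a description only, and a link between neighbours was not tested.

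Rises were fewer, and 13 of the 90 were in the DLK1-MEG3 domain on chromosome 14. The largest was A_19_P00320067 of chr1:852245-854050 on the - strand, which gave 1.52, 0.29 and 0.50 without FGF, while the bFGF cultures were at -4.75, -5.09 and -4.85 and the FGFC cultures at -3.00, -4.23 and -5.44, a change of 5.67 ± 0.53 against bFGF (SE, adjusted p = 5.23e-05). It was at 1.78 in the differentiated culture and between -6.54 and -3.00 in the E8 Medium cultures of H1 with FGF. In the DLK1-MEG3 domain, chr14:101285131-101539847, 13 of 29 probes rose and none fell. MEG3 probe A_19_P00319862 (chr14:101296681-101298460, + strand) gave -6.02, -6.83 and -6.64 with bFGF and -2.55, -1.32 and -2.27 without FGF, and FGFC gave -5.91, -6.31 and -6.02. No bFGF array was well above background and all 6 arrays without FGF were, so it was at least 13.4-fold higher. A_19_P00319439 was at least 10.1-fold higher, and A_19_P00318946 of chr14:101430757-101433381 changed by 5.46 ± 0.64. Of the 5 probes named MEG3, 3 passed. The 2 RefSeq probes of MEG3 differed, with 4.98 (adjusted p = 2.50e-06) at one and -0.07 (adjusted p = 0.80) at the other, and the 2 DLK1 probes rose by 5.37 and 9.61.

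The chromosome 14 domain also separated the lines. A_19_P00319862 was not well above background on any array of H1 with FGF, pre-culture or long-term, in E8 Medium or MEF-CM. It was at 0.56 to 2.85 in the 3 KhES-1 cultures, 2.01 to 2.78 in 201B7 and 1.73 to 2.88 in 253G1, well above background on all 18 of these arrays. Against H1 in E8 Medium, 253G1 was at least 249-fold higher at this probe (adjusted p = 5.74e-06), and 15 of the 29 probes of the domain rose and none fell. The DLK1 probes did not pass in that comparison, at -0.11 and 0.57 (adjusted p = 0.78 and 0.44). KhES-1 and 201B7 were not tested against H1. In the differentiated H1 culture the probe was at -5.51 and not well above background, while the DLK1 probes were 5.16 and 9.60 above the pre-cultures.

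**Figure D4:**
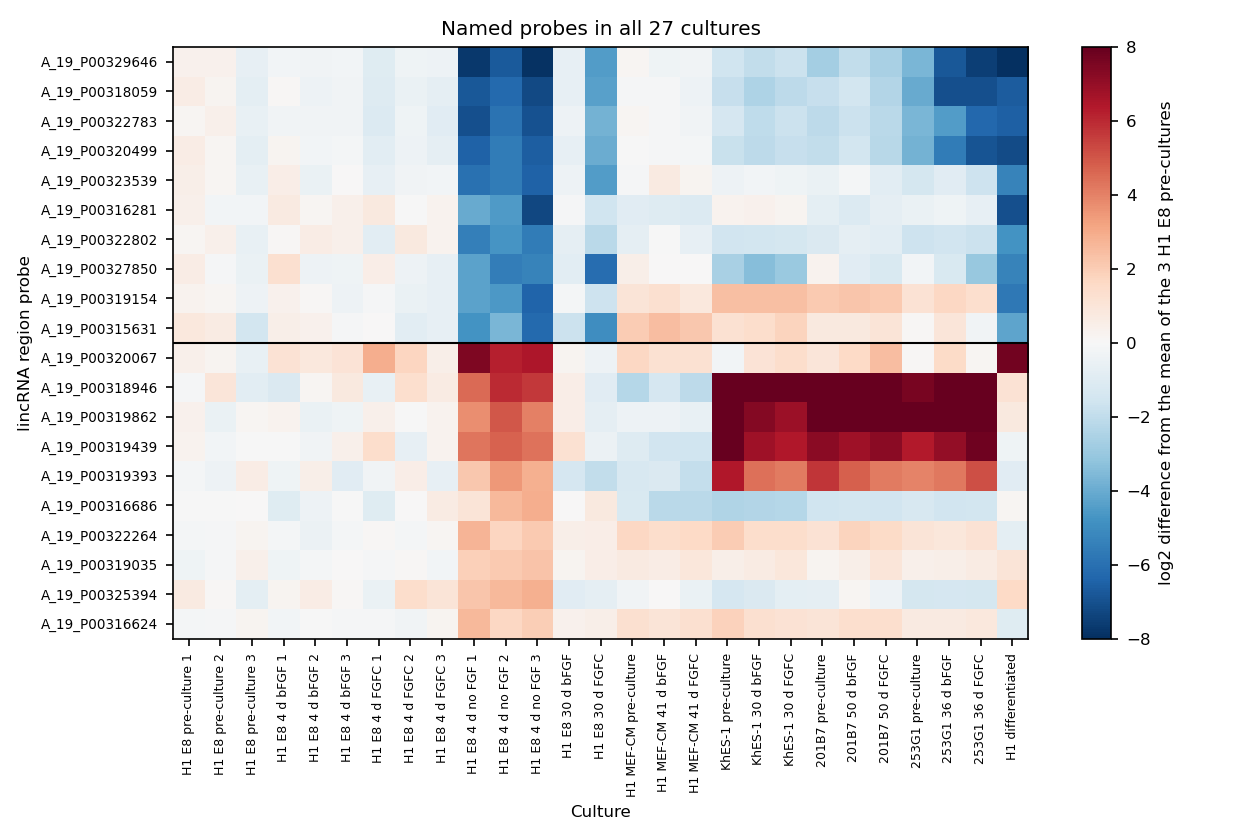
Log2 difference of the 20 named lincRNA probes (rows, falls above the line and rises below) from the mean of the 3 H1 pre-cultures in E8 Medium, in all 27 cultures (columns), on a colour scale that ends at -8 and 8. The 4 chromosome 14 probes in rows 2 to 5 below the line are high in KhES-1, 201B7 and 253G1, and the first 4 rows are low without FGF, in the differentiated culture and in the late 253G1 cultures.

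Other rises were smaller. Probe A_19_P00319035 of chr10:118588285-118590480 was at -3.44, -3.26 and -3.09 with bFGF and -1.17 to -0.80 without FGF, 2.28 ± 0.20 higher, and 4 of 6 probes of its locus rose. All 3 probes of chr4:82523950-82965397 rose by 2.13 to 2.42. A_19_P00316686 of chr1:205410835-205411291 was well above background on all 54 arrays and rose by 2.64 ± 0.50, with 1.52, 3.08 and 3.40 without FGF against -0.47, 0.10 and 0.45 with bFGF, but lost its call when experiment 2 or 3 was left out (adjusted p up to 0.115). The same was true of A_19_P00325394 (adjusted p up to 0.158).

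The comparison with FGFC uses the same cultures without FGF and is not independent of that with bFGF. The probes that fell were 387 (5.05%) and those that rose 64 (0.836%), beside 6.07% and 4.72% of all probes. By experiment, 431 lincRNA probes were 2-fold lower and 359 higher in experiment 1, 1082 and 717 in experiment 2, and 928 and 158 in experiment 3. Coding probes had 1466 lower and 1551 higher in experiment 1, 2136 and 2655 in experiment 2, and 2120 and 1651 in experiment 3. A_19_P00329646 changed by -6.87 ± 0.35, MEG3 probe A_19_P00319862 by 4.03 ± 0.34 and A_19_P00320067 by 5.00 ± 0.53. In the DLK1-MEG3 domain 8 of 29 probes rose. The MEG3 probes A_19_P00316396 and A_19_P00316675, which had passed against bFGF, did not pass (1.48 and 0.83, adjusted p = 0.085 and 0.28), nor did LINC01108 (-0.66, adjusted p = 0.14).

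FGFC against bFGF gave no call. At 4 days 0 lincRNA probes and 0 of all probes (0%) passed limma's test, with 304 lincRNA probes at an unadjusted p under 0.05, while 113 were 2-fold higher and 17 2-fold lower on the means, beside 487 and 52 of all 42405 probes. Over the 5 long-term systems 0 passed as well (0% of all probes), with 545 at an unadjusted p under 0.05. In simulated data of the 4-day design 14% of 2-fold and 55% of 4-fold changes were recovered, and in the 5-system design 58% and 97%. The simulated spread was each probe's own at 4 days and limma's shrunken estimate in the 5-system design, with no differences between systems. These recoveries are therefore not comparable with each other and only approximate the sensitivity in the real data. On the single cultures, 40 lincRNA probes were 2-fold lower with FGFC in 3 or more systems and 3 were higher, beside 131 and 11 of all 42405 probes. None was so in all 5 systems. The probe A_19_P00808693 of chr6:56809416-56818616 had log2 differences of -1.47 (H1, E8 Medium), -0.30 (H1, MEF-CM), -1.24 (KhES-1), -1.32 (201B7) and -3.00 (253G1), and was well above background on 8 of the 20 long-term arrays.

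Systems differed widely, and for lincRNA probes the balance depended on scaling. The p-values here measure the spread among the 3 cultures of a system. H1 in MEF-CM had 505 lincRNA probes higher and 1242 lower than H1 in E8 Medium (6.59% and 16.2%), beside 8.16% and 21.0% of all probes, whose median was shifted by -0.15. The falls were mostly in probes near background, where 42.3% of 2539 lincRNA probes fell, beside 48.7% of 11933 probes of all classes. Among the 5121 lincRNA probes detected throughout 1 system or both, 9.28% rose and 3.30% fell. Of the 30472 probes of all classes that passed this filter, 10.9% rose and 10.2% fell. In MEF-CM 69.4% to 72.1% of lincRNA probes were detected, and in these E8 Medium cultures 44.8% to 60.2%. Probes thus pass this filter more often through MEF-CM, which favours rises, and the shares are a description only. Under quantile normalization the lincRNA calls were 537 higher and 227 lower. The largest rise was A_19_P00812957 of chr5:18484318-18746268, at 2.06, 1.97 and 2.07 in MEF-CM and at -3.03, -5.71 and -6.89 in the H1 pre-culture, bFGF and FGFC cultures in E8 Medium (7.25 ± 0.57). LINC01108 was 4.80 higher in MEF-CM and LINC-ROR 2.24 higher. The MACC1-OT1 locus had 8 of 12 probes higher.

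In 253G1, 1171 lincRNA probes were lower and 254 higher than in H1 in E8 Medium (15.3% and 3.32%), beside 9.72% and 4.90% of all probes. With quantile normalization 1001 were lower and 460 higher. The detected share was 36.7% to 39.5% in the 253G1 cultures and 44.8% to 60.2% in the H1 cultures of this comparison. LINC00458 probes A_19_P00318496 and A_19_P00318291 were 3.51 and 3.52 higher in 253G1 (adjusted p = 0.032 and 0.015). Its probes A_19_P00322142 and A_19_P00315541 did not pass (1.97 and 0.70, adjusted p = 0.081 and 0.43). A_19_P00318496 was at -1.46, -3.41 and -6.49 in the H1 pre-culture, bFGF and FGFC cultures of this comparison. No array of that FGFC culture was well above background for it.

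201B7 had 3225 lincRNA probes higher and 233 lower than KhES-1 (42.1% and 3.04%), beside 27.7% and 11.3% of all probes, whose median was shifted by 0.34. Of the 3480 lincRNA probes near background 42.4% rose, beside 39.8% of 14722 probes of all classes. With quantile normalization 978 lincRNA probes were higher and 331 lower. The 201B7 pre-culture stood apart in brightness, with a 75th percentile signal of 182 and 234 on its arrays against 504 to 913 on all others. Without the pre-cultures 1340 lincRNA probes were higher and 126 lower, and without the bFGF cultures 326 and 20. A_19_P00321954 of chr4:88845069-88852669 was at 2.57, 2.98 and 3.40 in 201B7 and at -7.80, -7.79 and -7.89 in KhES-1, where no array was well above background, a difference of at least 838-fold. The H1 cultures with FGF were between 2.04 and 4.33 and those of 253G1 between 3.45 and 3.85. H19 was at -3.17 to -2.67 in KhES-1 and at -6.71 to -4.75 in 201B7, where no array was well above background.

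**Figure D5:**
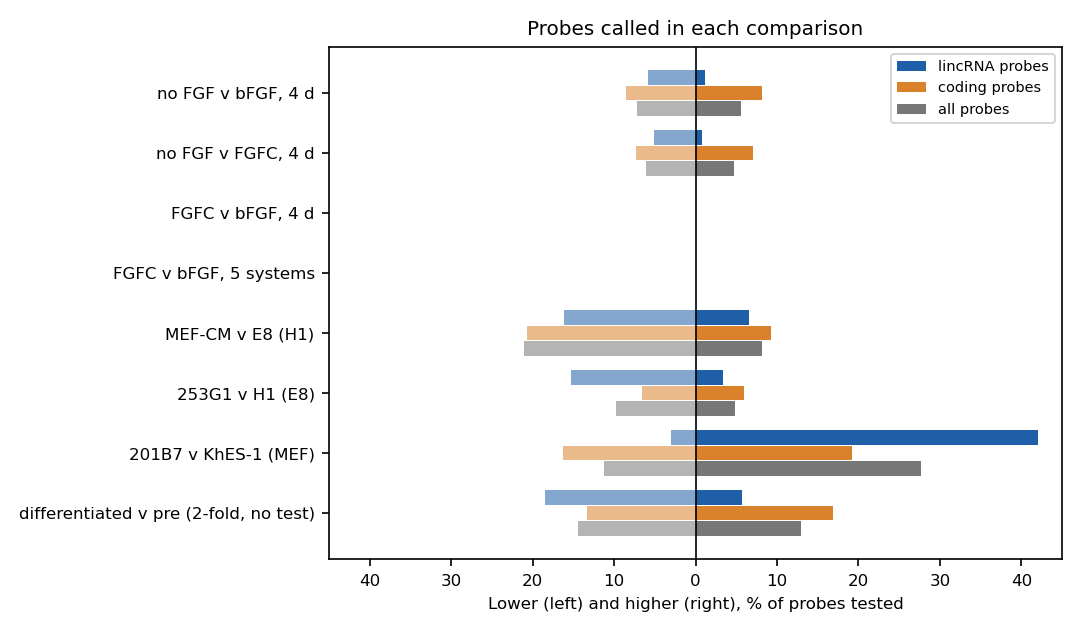
Percent of probes called higher (right of 0, full colour) or lower (left of 0, pale) in each comparison, for lincRNA, coding and all probes, by limma at an adjusted p under 0.05, or for the differentiated culture 2-fold and outside the range of undifferentiated cultures with no test. lincRNA probes have more falls than rises without FGF (5.89% and 1.17%), and 42.1% of them are higher in 201B7 than in KhES-1.

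The differentiated culture is 1 culture and gave no test. In its marker genes, 4 of 5 measured markers of undifferentiated cells were at least 2-fold lower (POU5F1 changed by -5.30), 3 of 3 neural, 4 of 4 trophoblast and amnion and 5 of 6 mesoderm and endoderm markers were higher, and of 4 fibroblast markers LUM, COL1A1 and COL1A2 were 10.9, 4.23 and 3.76 higher while THY1 changed by -2.81. Fewer cells of a type and less RNA per cell cannot be told apart. Without FGF for 4 days, 2 of these 5 undifferentiated markers had fallen (POU5F1 by 1.08 and NANOG by 1.71), SOX2 had risen by 1.32, and LIN28A and DNMT3B did not pass (0.58 and 0.01). PAX6 and ZIC1 of the neural list had risen by 5.44 and 3.95. GATA3 and TFAP2A of the trophoblast and amnion list had risen by 5.41 and 4.18. SOX1, CDX2 and HAND1 did not pass (0.58, 0.50 and 0.34). Of the mesoderm and endoderm list only T passed (0.83), and no array without FGF was well above background for it. Of the fibroblast list only THY1 passed (-1.70). Against the mean of the 3 pre-cultures, 1417 lincRNA probes were at least 2-fold lower and 440 higher while outside the range of the 11 undifferentiated H1 cultures in E8 Medium (18.5% and 5.74%), beside 14.4% and 13.0% of all probes.

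The members that fell without FGF were often lower there too. Of the 451 that fell, 259 (57.4%) were among the 1417 lower ones, 18.3% of those, and 20 were among the higher ones. Relative to the pre-cultures, the median of the 451 was -1.25, -1.37 and -1.51 without FGF and -1.76 after differentiation. The 451 were picked for their fall in these cultures without FGF, so the medians there are a description only. Some cultures with FGF were low too. H1 after 30 days was at -1.13 with FGFC and -0.53 with bFGF. KhES-1 was at -1.29 to -1.17, where all lincRNA probes had -0.83 to -0.72. 201B7 and 253G1 lay between -1.07 and -0.67, and H1 in MEF-CM between -0.29 and -0.06. Of the 90 that rose, 30 (33.3%) were among the 440 higher ones, 6.82% of those, and 4 were among the lower ones. A_19_P00329950 of chr4:93175777-93192627 went from 2.58 in the pre-cultures to -5.32, and A_19_P00329646 from 1.32 to -6.95, both not well above background in the differentiated culture, at least 235-fold and 218-fold lower. Among the rises, NR2F1-AS1 probe A_19_P00320140 (chr5:92745064-92906499) went from -6.23 to -0.95, at least 30.1-fold higher, and another probe of its region by at least 40.6-fold. A pair of probes of chr15:96788096-96828896 rose at least 55.4 and 42.0-fold. H19, an imprinted RNA of fetal tissues, was -3.80 in the pre-cultures and 1.64 after differentiation, a difference of 5.45, while without FGF for 4 days it was at -3.13, -4.46 and -3.37.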

How the data were processed

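RNA of 27 cultures was labelled with Cy3 and hybridised to 54 one-colour Agilent arrays, and per the file headers the deposited signal intensities were extracted and background-subtracted with Agilent Feature Extraction 10.7.3.1. From these, log2 intensities minus the 75th percentile of each array were computed, spots flagged as outliers were left out, and the mean was taken over the spots of a probe and then over both arrays of a culture, counted as 1 sample. Groups came from the sample titles. The rule for members reads only the probe annotation, but this class of probes and the gene lists were picked with earlier results of these data known. limma 3.58.1 in R 4.3.3 was fitted to all 42405 probes with Benjamini-Hochberg adjustment, on 12 H1 cultures at 4 days, on 10 long-term cultures with the system as a block, and on 15 cultures between systems with the culture kind as a term. Nothing states that the 3 experiments were separate thaws, so p-values measure the spread between these cultures. Named probes were the largest rises and falls among calls that moved one way in every experiment, culture kind or system and were detected in all arrays of the brighter group, up to 10 each way without FGF, 5 between systems and 8 for the differentiated culture, beside the listed known RNAs, and regions on chromosome 8 are not described. "At least" folds set the brighter mean against the lowest signal well above background on each array. The fit was tested on simulated data. Supplementary lists were used for probe names and positions only, and the authors' fold changes and p-values in them were not used. The number of arrays limits the precision.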

Additional observations from a re-analysis of the deposited data

How the results depend on the processing

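Called lincRNA probes numbered 541 without FGF against bFGF, 813 with slide as a random block, 1338 with only both arms in the fit, and 153 to 359 when 1 experiment was left out. Against FGFC there were 451, with 729, 300 and 113 to 495. With the experiment number as a replicate block the counts were 568 and 483, and same-numbered cultures did not all deviate together (r from -0.16 to 0.52). FGFC against bFGF had 0 calls, and 130 probes at 2-fold on the means. The 5 long-term systems had 0, and 43 at 2-fold in 3 or more systems. H1 in MEF-CM against E8 Medium had 1747, but 368 with normexp background correction (38.3% lower), 764 with quantile normalization (29.7% lower), 609 among probes well above background (26.4% lower) and 376 to 1969 when 1 kind of culture was left out, beside 71.1% lower in the main setting. For 253G1 against H1 the count was 1425, with 447 under normexp, 841 on the first array of each culture and 207 to 587 with a culture kind left out. 201B7 against KhES-1 had 3458, with 1309 under quantile normalization (25.3% lower beside 6.74%), 2003 on first arrays, 2114 among probes well above background, 2125 at 2-fold, and 346 to 2804 with a culture kind left out. The differentiated culture had 1857, with 587 under normexp and 1131 among probes well above background. For MEF-CM against E8 Medium, probes pass the filter for well above background more often through MEF-CM, which favours rises. The cause was not tested. Among the named probes, 18 of 20 kept their call in every setting without FGF against bFGF, 18 of 20 against FGFC, 10 of 10 for MEF-CM, 6 of 10 for 253G1 and 6 of 10 for 201B7. The difference in detected share without FGF was -17.9 points on first arrays and -7.12 on second arrays.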
